A study of Mus musculus with 10 samples.

Results

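Imprinted genes are transcribed mainly from the copy inherited from 1 parent. The genes described here are 10 that are known to be imprinted and to be transcribed in islets or other endocrine tissue: *Meg3*, *Rian*, *Dlk1*, *H19*, *Cdkn1c*, *Plagl1*, *Peg3*, *Nnat*, *Gnas* and *Rasgrf1*. They were taken by symbol from a table of 47340 genes, and each symbol matched 1 row. RNA was measured in pancreatic islets of 12-wk-old mice, with 5 FL and 5 KO libraries and 1 library per mouse. FL mice carry floxed *Fitm2*, the gene of the endoplasmic reticulum protein FIT2, without Cre, and are labelled wild type for genotype. KO mice (βFIT2KO, labelled beta-FIT2KO) carry the same floxed *Fitm2* and the transgene B6.Cg-Tg(Ins2-cre)25Mgn/J, which makes Cre under a rat insulin promoter, so that the deletion is directed to β cells while the other cells of the islet keep the gene. Both groups were male chow-fed mice on the study's account, and the FL mice were littermates. No library of mice with Cre and unfloxed *Fitm2* was analysed here, so that an effect of the Cre transgene and an effect of losing FIT2 cannot be told apart. All islets recovered overnight in CMRL medium before total RNA was extracted, and polyA RNA was selected for the libraries.

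Parental expression is set by DNA methylation laid down in the germ line. At an imprinting control region the methylated copy is bound by the zinc-finger protein ZFP57, which recruits TRIM28, and DNMT1 copies the methylation at each cell division. Imprinted genes lie in clusters in which genes of opposite parental origin stand side by side, and several of them control growth, the cell cycle and hormone secretion. In the mouse *Peg3*, *Plagl1*, *Nnat*, *Dlk1* and *Rasgrf1* are known as paternally expressed genes, whereas *Meg3*, *Rian*, *H19* and *Cdkn1c* are maternally expressed. *Gnas* gives several transcripts of different parental origin, and the one that encodes the stimulatory G protein α-subunit is read from both copies in most tissues. The values below are sums over both parental copies, so they carry no information on which copy was read.

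Promoter sequences are given here for the genes that changed, and for *Meg3* as a gene that did not pass the test. RefSeq windows of 300 bases (250 before and 50 after the start, build GRCm38.p6) were found for 8 of the 10 genes, with 12 windows in all. Those printed here, 5′ to 3′ on the strand of the gene, are chr7:6730370-6730669 on the minus strand for *Peg3*, chr9:89909525-89909824 on the plus strand for *Rasgrf1*, chr10:13090582-13090881 on the plus strand for *Plagl1*, chr2:157559828-157560127 on the plus strand for *Nnat*, chr12:109452573-109452872 on the plus strand for *Dlk1* and chr12:109540746-109541045 on the plus strand for *Meg3*. The *Plagl1* window lies within the gene's span and not at its outermost start. For *Rasgrf1* the window ends before the start of the gene as given below. Capitals mark the ZFP57 recognition letters TGCCGC, searched on both strands, so that a match on the opposite strand reads GCGGCA.
Peg3: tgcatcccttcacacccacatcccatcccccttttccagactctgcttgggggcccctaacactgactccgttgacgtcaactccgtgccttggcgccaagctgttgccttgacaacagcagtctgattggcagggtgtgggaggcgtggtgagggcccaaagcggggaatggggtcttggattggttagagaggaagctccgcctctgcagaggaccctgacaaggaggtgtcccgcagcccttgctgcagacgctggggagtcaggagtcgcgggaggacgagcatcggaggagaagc
Rasgrf1: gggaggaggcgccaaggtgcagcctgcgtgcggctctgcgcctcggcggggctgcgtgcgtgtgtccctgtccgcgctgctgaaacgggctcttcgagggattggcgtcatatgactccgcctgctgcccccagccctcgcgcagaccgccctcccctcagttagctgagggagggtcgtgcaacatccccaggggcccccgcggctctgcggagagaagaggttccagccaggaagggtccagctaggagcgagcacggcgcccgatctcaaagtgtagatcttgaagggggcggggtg
Plagl1: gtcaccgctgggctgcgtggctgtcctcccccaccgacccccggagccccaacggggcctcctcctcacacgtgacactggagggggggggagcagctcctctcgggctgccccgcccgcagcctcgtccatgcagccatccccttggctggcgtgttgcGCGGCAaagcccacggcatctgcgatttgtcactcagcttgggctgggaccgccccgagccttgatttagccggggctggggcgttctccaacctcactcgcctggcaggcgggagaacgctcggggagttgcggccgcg
Nnat: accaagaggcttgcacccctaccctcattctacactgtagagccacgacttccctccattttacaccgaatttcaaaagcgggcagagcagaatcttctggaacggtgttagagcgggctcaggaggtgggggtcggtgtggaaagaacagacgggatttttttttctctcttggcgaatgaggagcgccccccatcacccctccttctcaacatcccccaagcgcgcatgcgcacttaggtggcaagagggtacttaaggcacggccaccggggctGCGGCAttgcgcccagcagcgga
Dlk1: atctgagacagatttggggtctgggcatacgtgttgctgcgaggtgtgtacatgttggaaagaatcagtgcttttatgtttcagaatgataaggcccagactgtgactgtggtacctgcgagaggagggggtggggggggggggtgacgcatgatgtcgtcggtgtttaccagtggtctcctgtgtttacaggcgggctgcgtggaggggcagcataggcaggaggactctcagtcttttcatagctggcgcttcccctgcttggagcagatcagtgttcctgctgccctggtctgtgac
Meg3: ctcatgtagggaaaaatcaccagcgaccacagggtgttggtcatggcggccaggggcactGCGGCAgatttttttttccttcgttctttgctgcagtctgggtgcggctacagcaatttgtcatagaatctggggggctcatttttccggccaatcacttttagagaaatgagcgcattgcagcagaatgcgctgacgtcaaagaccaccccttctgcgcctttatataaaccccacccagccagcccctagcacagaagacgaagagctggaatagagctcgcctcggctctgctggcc
*Rasgrf1* and *Plagl1* held 26 CG dinucleotides each, *Nnat* 17, *Peg3* and *Meg3* 13 each and *Dlk1* 9, where the median over all 32851 windows was 7. The quartiles over all windows were 3 and 20, so that only *Rasgrf1* and *Plagl1* lay above them. A TGCCGC match was present in the windows of *Plagl1*, *Nnat* and *Meg3*, each on the opposite strand, and in 11.6% of all windows. The other *Meg3* window, chr12:109545148-109545447, is not printed and held 1 CG and no match. None of these letters stood in the windows of *Peg3*, *Rasgrf1* and *Dlk1*. A match describes the letters only, and the windows need not be the control regions of these genes. The *Peg3* window shares 263 bases with that of *Usp29*, a paternally expressed gene that is transcribed in the opposite direction. In GENCODE M21, which gives the gene coordinates below, the *Peg3* and *Usp29* gene bodies are 146 bases apart.

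*Fitm2* was read first as a check of the labels. Levels are in FPKM, the reads of a gene divided by its exon length and by the size of the library. *Fitm2* went from 23.3 ± 9.86 FPKM in floxed islets to 6.95 ± 2.36 FPKM in KO islets (SD, n = 5 each), with every KO mouse below the lowest FL mouse and a limma log2 fold change of -1.58 (SE 0.28, adjusted p = 0.00228). *Nnat* and *Gnas* lie on chromosome 2 with *Fitm2*, at 5.9 Mb and 10.81 Mb from it. Deposited values summed to between 627084 and 675470 FPKM per library. Read counts were not used here, and relative depth estimated from the lowest values ran from 1.41 to 2.41 times that of FL mouse 1 in the other FL libraries and from 1.52 to 2.06 times in KO. The β cell hormones *Ins1*, *Ins2* and *Iapp* and the α cell hormone *Gcg* were listed at 0 in all 10 libraries and could not be used to check the tissue, whereas the other β cell markers were present (*Mafa*, *Slc2a2*, *Nkx6-1*, *Pdx1* and *Ucn3*, summing to between 498 and 1081 FPKM). Acinar markers summed to between 2484 and 18114 FPKM, with the highest sum in KO mouse 5, and none of the 8 passed by limma (0 at an unadjusted p under 0.05).

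Of the 9 imprinted genes that reached a mean of 1 FPKM in a group, 4 fell in KO islets (*Rasgrf1*, *Peg3*, *Plagl1* and *Nnat*), 1 rose (*Dlk1*) and 4 did not pass the test (*Rian*, *Gnas*, *Meg3* and *Cdkn1c*), by limma on log2(FPKM + 1) with Benjamini-Hochberg adjustment over 13065 genes at 0.05. The background was high, as 25.5% of all genes tested passed, 16.5% as lower and 9.05% as higher. Of all calls 64.5% were lower, a share that was 52.2% to 53.3% once libraries were rescaled by median ratio, quantiles or their sum. All 5 paternally expressed genes passed, and none of the 3 maternally expressed genes tested did by limma, although *Rian* was at an unadjusted p under 0.05. The imprinted genes and lists were chosen with earlier results of these data known, so these counts are a description only. Of the calls, *Dlk1* was lost in 11 and *Nnat* in 6 of 19 alternative settings. Among the other imprinted genes listed, 6 of 15 paternally expressed genes passed (5 lower, 1 higher, median log2 fold change -0.13) and 3 of 9 maternally expressed genes (1 lower, 2 higher, median 0.07), and the difference between parental classes was not tested. The median log2 fold change was -0.57 over the 5 paternally expressed genes and -0.11 over the 3 maternally expressed genes, beside -0.06 over all genes tested. With a 1.5-fold change required as well, *Nnat* and *Rasgrf1* passed, 2 of the 9, beside 4.89% of all genes tested. In bulk islets, fewer cells of a type and less RNA per cell cannot be told apart.

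**Figure D1:**
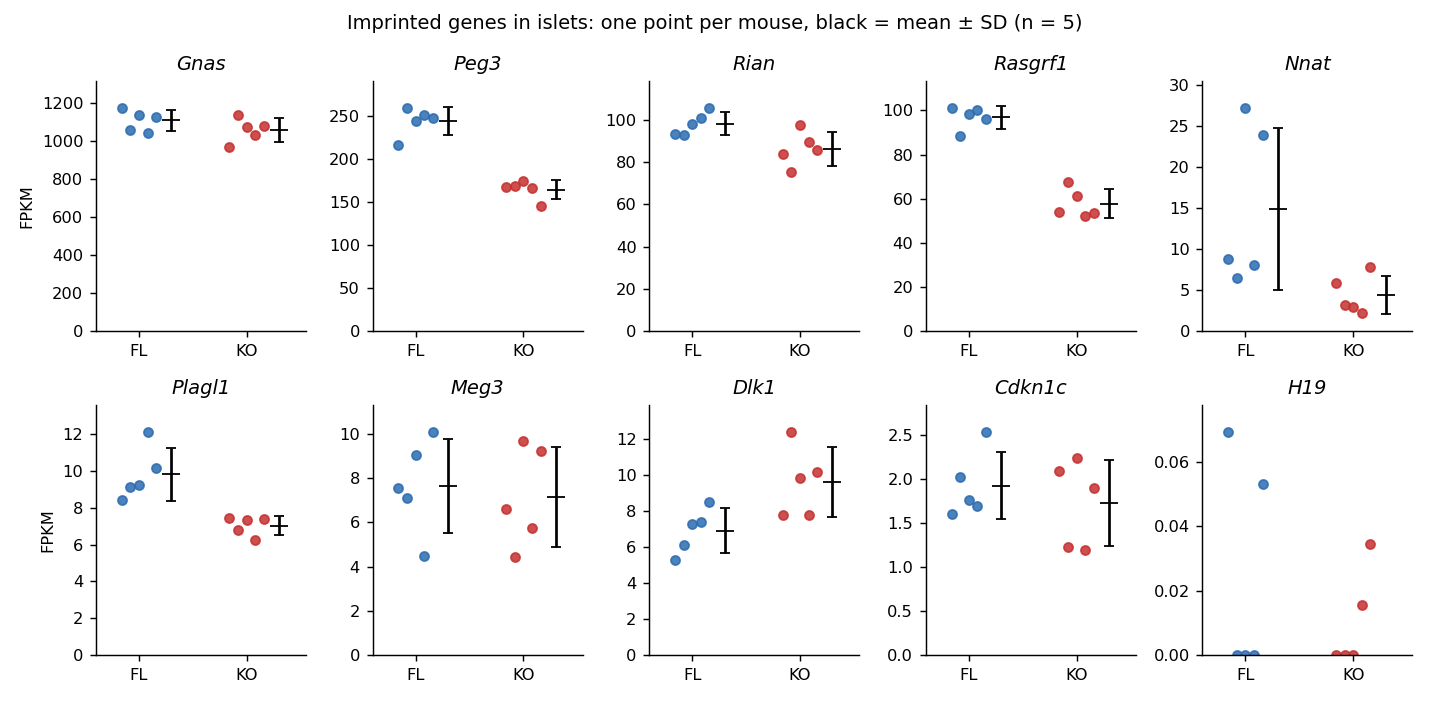
FPKM (y axis, from 0 in each panel) of the 10 imprinted genes in FL and KO islets, with 1 point per mouse and the mean ± SD in black (n = 5, not drawn for *H19*). *Peg3*, *Rasgrf1* and *Plagl1* show no overlap between the groups, whereas *Nnat* in FL splits into mice at 6.51 to 8.77 FPKM and mice at 23.9 and 27.2 FPKM.

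By level, *Gnas* was highest in both groups, at a mean of 1108 FPKM in FL, then *Peg3*, *Rian* and *Rasgrf1*. In FL the lowest mouse for *Gnas* was above the highest for *Peg3*, and the lowest for *Peg3* above the highest for *Rian*. *Rian* and *Rasgrf1* overlapped in FL but not in KO, where *Rasgrf1* was lower. *Nnat*, *Plagl1*, *Meg3* and *Dlk1* overlapped each other in FL, with means between 6.91 and 14.9 FPKM. *Dlk1* was eighth of the 10 in FL and the fifth in KO, and *Nnat* moved from the fifth to the eighth place. *Cdkn1c* stood below these in every mouse, and *H19* was last.

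*Peg3*, a zinc-finger protein gene (ENSMUSG00000002265.16, chr7:6703892-6730431, minus strand), was among the most abundant imprinted transcripts, higher than 96.5% of the genes tested. Its level was 216, 259, 244, 250 and 247 FPKM in FL mice 1 to 5 and 167, 169, 174, 166 and 145 FPKM in KO mice 1 to 5. The groups did not overlap, and KO mouse 5 was lowest of all. The KO mean of 164 ± 10.9 FPKM (SD, n = 5) was 67.4% of the FL mean of 243 ± 16.1 FPKM (SD, n = 5). The log2 fold change was -0.57 (SE 0.06, 95% interval -0.70 to -0.43, limma adjusted p = 0.000108), and the exact two-sided permutation test gave p = 0.00794, the smallest that 5 against 5 allows.

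Both tested neighbours of *Peg3* on chromosome 7 fell with it. *Usp29*, a gene of the ubiquitin-specific protease family read from the paternal copy, stood at 16.02, 19.8, 16.6, 16.3 and 17.6 FPKM in FL mice and 10.8, 10.2, 11.2, 10.5 and 9.998 FPKM in KO mice. *Zim1*, a maternally expressed zinc-finger gene 7.4 kb from *Peg3*, stood at 14.3, 17.9, 18.5, 14.0 and 19.2 FPKM in FL mice and 7.60, 7.73, 8.82, 9.29 and 8.21 FPKM in KO mice. The groups did not overlap for either gene. *Usp29* in KO was 61.0% of its FL mean (log2 fold change -0.66, SE 0.06, limma adjusted p = 2.77e-05) and *Zim1* 49.6% (log2 fold change -0.92, SE 0.10, limma adjusted p = 6.41e-05). The *Peg3* cluster thus held lower levels for genes of both parental origins.

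**Figure D2:**
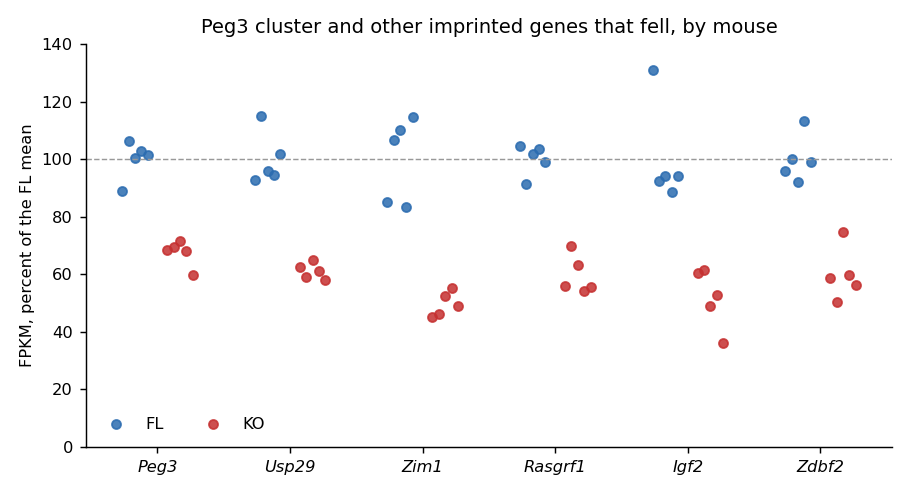
FPKM as a percent of each gene's FL mean (y axis) for *Peg3*, its neighbours *Usp29* and *Zim1*, and *Rasgrf1*, *Igf2* and *Zdbf2*, with 1 point per mouse (FL blue, KO red). KO means were 67.4%, 61.0%, 49.6%, 59.7%, 52.0% and 59.9% of FL in that order, and no gene shown has overlapping groups. The KO mean of *Igf2* was 0.936 FPKM, under the filter of 1 FPKM.

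*Plagl1* (ENSMUSG00000019817.18, chr10:13060504-13131694, plus strand) encodes a zinc-finger transcription factor with growth-suppressing activity. It was at 8.45, 9.12, 9.27, 12.2 and 10.2 FPKM in FL mice and 7.45, 6.78, 7.33, 6.25 and 7.38 FPKM in KO mice. The groups did not overlap, but the lowest FL mouse was only 1 FPKM or so above the highest KO mouse. KO islets held 71.5% of the FL mean, with a log2 fold change of -0.42 (SE 0.09, 95% interval -0.62 to -0.23, limma adjusted p = 0.0052, exact permutation p = 0.00794). *Peg3*, *Plagl1* and *Rasgrf1* were the 3 of 9 genes without overlap, a pattern seen in 19.1% of all genes tested.

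*Rasgrf1* (ENSMUSG00000032356.12, chr9:89909908-90026977, plus strand) encodes a guanine nucleotide exchange factor that activates Ras. Its levels were 101.2, 88.3, 98.4, 100.2 and 96.0 FPKM in FL mice and 54.0, 67.5, 61.3, 52.3 and 53.7 FPKM in KO mice. All KO mice lay well below the lowest FL mouse. The mean fell from 96.8 ± 5.16 to 57.8 ± 6.48 FPKM (SD, n = 5 each), to 59.7%, with a log2 fold change of -0.74 (SE 0.07, 95% interval -0.90 to -0.58, limma adjusted p = 4.84e-05, exact permutation p = 0.00794). It had the smallest adjusted p of the 9 genes tested.

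*Nnat* (ENSMUSG00000067786.16, chr2:157560078-157562522, plus strand) encodes neuronatin, a small membrane proteolipid of the endoplasmic reticulum found in brain and β cells. Its level was 8.77, 6.51, 27.2, 8.01 and 23.9 FPKM in FL mice and 5.93, 3.24, 2.98, 2.19 and 7.80 FPKM in KO mice. FL mice 3 and 5 stood far above the other FL mice, and KO mouse 5 was above FL mouse 2, so the groups overlapped. The mean fell from 14.9 ± 9.86 to 4.43 ± 2.35 FPKM (SD, n = 5 each), the widest relative spread in FL among the genes tested here, and the log2 fold change was -1.43 (SE 0.42, 95% interval -2.35 to -0.51, limma adjusted p = 0.0279, exact permutation p = 0.0159). The call was lost without FL mouse 3 or 5 or KO mouse 2, 3 or 4, with adjusted p between 0.0195 and 0.0681 over the 10 fits that left out 1 mouse and a log2 fold change of -1.17 without FL mouse 3. FL mice 3 and 5 also had the highest summed α cell markers of the 10 libraries (714 and 752 FPKM, against 344 to 643 FPKM in the others). FL mouse 4 was at 643 FPKM for these markers, with *Nnat* at 8.01 FPKM. Other cell types had their own highest mice. *Ppy* was highest in FL mouse 3 (16923 FPKM), the delta cell sum in FL mouse 5 (5852 FPKM) and the β cell sum in FL mouse 4 (1081 FPKM). The part of these markers in the *Nnat* result was not tested.

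*Nnat* lies inside an intron of *Blcap*, on the opposite strand, with no exon base shared. *Blcap*, a gene read mostly from both copies, fell from 40.8 ± 1.5 to 34.4 ± 1.63 FPKM (SD, n = 5 each), with no overlap and a log2 fold change of -0.24 (SE 0.05, limma adjusted p = 0.00357). It did not share the jump of *Nnat* in FL mice 3 and 5, at 40.4 FPKM in both. A small annotated gene within an exon of *Nnat* on the opposite strand, *Gm23134*, was listed at 94.9 FPKM in KO mouse 3 and at 0 in the other 9 libraries, a reading named after its values were seen. Whether strand was used in the counting is not given in the sources used here, so reads from overlapping opposite genes cannot be told apart.

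*Dlk1* (ENSMUSG00000040856.17, chr12:109452823-109463336, plus strand) encodes a transmembrane protein with epidermal growth factor repeats, related to the Notch ligands. It was the only gene of the 10 called higher, at 5.30, 6.09, 7.27, 7.40 and 8.49 FPKM in FL mice and 7.75, 12.4, 9.86, 7.80 and 10.2 FPKM in KO mice. KO mice 2, 3 and 5 were above every FL mouse, while KO mice 1 and 4 lay below FL mouse 5. The mean went from 6.91 ± 1.24 to 9.61 ± 1.94 FPKM (SD, n = 5 each), to 139% of FL, with a log2 fold change of 0.42 (SE 0.14, 95% interval 0.11 to 0.72, limma adjusted p = 0.0467, exact permutation p = 0.0397). This call was narrow. It was lost without FL mouse 1, 2, 3 or 4 or KO mouse 2, 3 or 5, with adjusted p between 0.0338 and 0.0958 and log2 fold changes between 0.33 and 0.49 over the fits that left out 1 mouse.

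The noncoding RNAs downstream of *Dlk1* on chromosome 12 did not pass the test. *Rian* (ENSMUSG00000097451.9, chr12:109603940-109661716, plus strand), a host of small nucleolar RNAs, was at 93.1, 92.7, 98.0, 100.8 and 105.6 FPKM in FL mice and 83.8, 75.4, 97.4, 89.3 and 85.5 FPKM in KO mice. KO mouse 3 lay within the FL range and the other 4 KO mice below it. The log2 fold change was -0.19 (SE 0.07, 95% interval -0.34 to -0.04, limma adjusted p = 0.0679), whereas the exact permutation test of this gene alone gave p = 0.0317, unadjusted. *Rian* passed by limma without KO mouse 3 (adjusted p 0.0239, of a range from 0.0239 to 0.233 over the alternatives).

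*Meg3* (ENSMUSG00000021268.17, chr12:109541001-109571726, plus strand), the long noncoding RNA between *Dlk1* and *Rian*, was at 7.54, 7.11, 9.03, 4.50 and 10.1 FPKM in FL mice and 6.62, 4.44, 9.67, 5.73 and 9.25 FPKM in KO mice. Both groups covered nearly the same range, from below 5 to above 9 FPKM. The log2 fold change of -0.10 (SE 0.22, 95% interval -0.58 to 0.39, limma adjusted p = 0.787, exact permutation p = 0.69) leaves room for a change of either sign. It was 0.00 without FL mouse 5 and 0.04 without KO mouse 2.

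By group mean *Rian* was thus over 10 times as abundant as *Meg3* per length of exon, in FL and in KO. Both are read from the same strand, 32.2 kb apart. As a description, deviations of log2(FPKM + 1) from the group means over the 10 libraries correlated with r = 0.53 between *Meg3* and *Rian*, 0.01 between *Dlk1* and *Meg3* and 0.02 between *Dlk1* and *Rian*. The genes whose deviations were most like those of *Meg3* among all tested were *Kmt2a* (r = 0.94), *Sppl2b* (r = 0.92) and *Wasf3* (r = 0.91). All of these values share the same libraries and depths. *Mirg*, the microRNA host further downstream, averaged 4.90 ± 1.26 FPKM in floxed mice and 5.26 ± 0.334 FPKM in knockouts (SD, n = 5 each), with a log2 fold change of 0.11 (95% interval -0.17 to 0.39, limma adjusted p = 0.564). *Rtl1* and *Dio3* in this cluster were under 1 FPKM and were not tested.

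**Figure D3:**
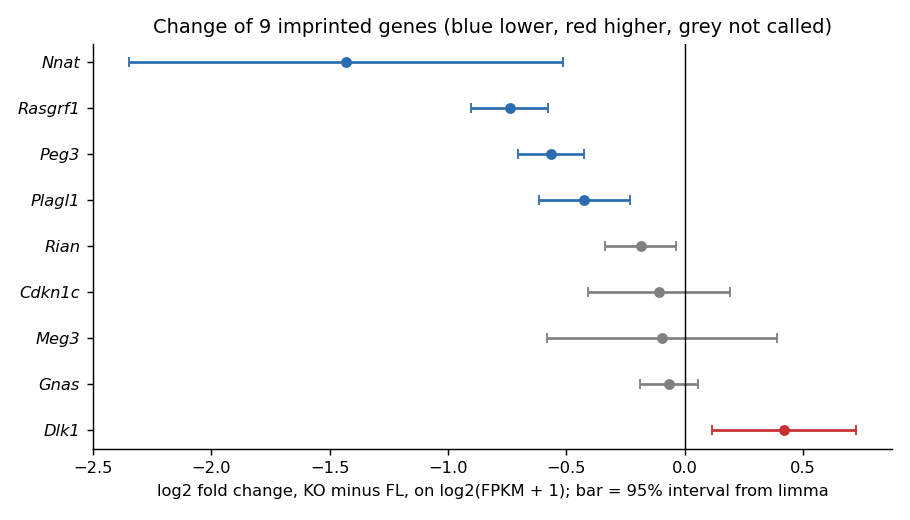
log2 fold change of KO minus FL on log2(FPKM + 1) (x axis) for the 9 imprinted genes tested, with the 95% interval from limma (n = 5 per group). *Rasgrf1*, *Peg3* and *Plagl1* have narrow intervals below 0, *Nnat* a wide one from -2.35 to -0.51, and *Dlk1* is the only gene to the right of 0.

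*Cdkn1c* (ENSMUSG00000037664.13, chr7:143458339-143461050, minus strand) encodes p57, an inhibitor of cyclin-dependent kinases that holds β cells out of the cell cycle. It was low, at 1.61, 2.03, 1.77, 1.69 and 2.54 FPKM in FL mice and 2.09, 1.23, 2.24, 1.20 and 1.90 FPKM in KO mice. KO mice 2 and 4 were below all FL mice and the others within their range. The log2 fold change was -0.11 (SE 0.14, 95% interval -0.41 to 0.19, limma adjusted p = 0.594, exact permutation p = 0.46). *Kcnq1* and *Slc22a18* of the same cluster did not pass either (log2 fold change 0.17, adjusted p = 0.585, and -0.05, adjusted p = 0.724, by limma), and *Kcnq1ot1* and *Phlda2* were under 1 FPKM.

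*H19* (ENSMUSG00000000031.15, chr7:142575529-142578143, minus strand), a noncoding RNA that is abundant before birth, was listed at 0 in 6 of the 10 libraries. It was at 0.0694 FPKM in FL mouse 1, 0.0530 FPKM in FL mouse 5, 0.0156 FPKM in KO mouse 4 and 0.0345 FPKM in KO mouse 5, and it was not tested. *Igf2*, its paternally expressed partner 72.6 kb away, which encodes insulin-like growth factor 2, was at 2.36, 1.66, 1.69, 1.598 and 1.70 FPKM in FL mice and 1.09, 1.11, 0.882, 0.948 and 0.652 FPKM in KO mice. The groups did not overlap, and KO islets held 52.0% of the FL mean (log2 fold change -0.53, SE 0.10, limma adjusted p = 0.00386).

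*Gnas* (ENSMUSG00000027523.19, chr2:174284320-174346744, plus strand), which encodes the G protein subunit that couples glucagon, GIP and GLP-1 receptors to adenylate cyclase, was higher than 99.6% of the genes tested. Its level was 1175, 1059, 1137, 1042 and 1129 FPKM in FL mice and 971, 1137, 1076, 1033 and 1077 FPKM in KO mice. The groups overlapped in all but KO mice 1 and 4. The log2 fold change was -0.07 (SE 0.06, 95% interval -0.19 to 0.06, limma adjusted p = 0.419, exact permutation p = 0.246), so that the interval spans 0.878 to 1.04 times the FL level. The value sums all transcripts of the locus, including those of different parental origin. The antisense *Nespas* shares 988 exon bases with it and averaged 0.169 ± 0.0926 FPKM in floxed mice and 0.143 ± 0.0461 FPKM in knockouts (SD, n = 5 each).

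Around *Gnas*, 7 of 14 tested genes of its signalling pathway fell and 1 rose, beside 16.5% lower and 9.05% higher over all genes tested. With libraries rescaled by median ratio, quantiles or their sum, 4 were lower and 2 higher. The GIP receptor gene *Gipr* fell to 56.1% of FL (9.80 ± 0.557 to 5.50 ± 1.07 FPKM, SD, n = 5 each; log2 fold change -0.75, limma adjusted p = 0.000563), and the glucagon receptor gene *Gcgr* to 66.3% (20.2 ± 2.07 to 13.4 ± 1.21 FPKM; log2 fold change -0.56, limma adjusted p = 0.000584). The GLP-1 receptor gene *Glp1r*, named after its values were seen, was the most abundant of the 3 receptors and did not pass (561 ± 57.2 FPKM in floxed mice, 468 ± 67.4 FPKM in knockouts, groups overlapping, log2 fold change -0.27, 95% interval -0.49 to -0.04, limma adjusted p = 0.0835). The adenylate cyclases *Adcy6* (log2 fold change -0.16) and *Adcy9* (-0.16), the protein kinase A catalytic subunits *Prkaca* (-0.13) and *Prkacb* (-0.34) and the transcription factor *Creb1* (-0.24) were lower, while the regulatory subunit *Prkar2b* was higher (0.21). *Gipr*, *Gcgr*, *Prkacb* and *Creb1* kept the call when any 1 mouse was left out. *Adcy6*, *Adcy9* and *Prkar2b* lost it in 8 and *Prkaca* in 6 of those 10 fits, and *Adcy6*, *Adcy9* and *Prkaca* also lost it under each of the 3 rescalings. The median log2 fold change of the 14 genes was -0.16.

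Across other imprinted genes the directions were mixed. Of 35 listed, 24 were tested, 6 fell and 3 rose, a called share of 37.5% beside 25.5% over all genes tested, with a median log2 fold change of 0.00. Besides *Igf2*, *Usp29* and *Zim1*, those that fell were *Zdbf2* (10.7 ± 0.858 to 6.41 ± 0.959 FPKM, SD, n = 5 each, log2 fold change -0.67, limma adjusted p = 0.000334), *Peg13* (log2 fold change -0.44, adjusted p = 0.00274), a noncoding RNA, and *Ndn* (log2 fold change -0.36, adjusted p = 0.00405), which encodes the growth suppressor necdin. All 3 are paternally expressed and had no overlap between groups. The genes that rose were *Peg10* (1.52 ± 0.313 to 2.28 ± 0.302 FPKM, log2 fold change 0.38, adjusted p = 0.021), a retrotransposon-derived gene, *Igf2r* (36.4 ± 1.73 to 46.2 ± 4.17 FPKM, log2 fold change 0.33, adjusted p = 0.00382) and *Grb10* (22.0 ± 1.67 to 26.2 ± 1.98 FPKM, log2 fold change 0.24, adjusted p = 0.0202). *Igf2r* is the maternally expressed receptor that clears IGF2, and *Grb10* encodes an adaptor that restrains insulin and IGF receptor signalling. *Igf2r* had no overlap between groups. *Igf2* was tested only through its FL mean, and a link between *Igf2* and *Igf2r* was not tested. *Grb10* lost its call without KO mouse 4 (adjusted p 0.0516, of a range from 0.00513 to 0.0516 over the alternatives).

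**Figure D4:**
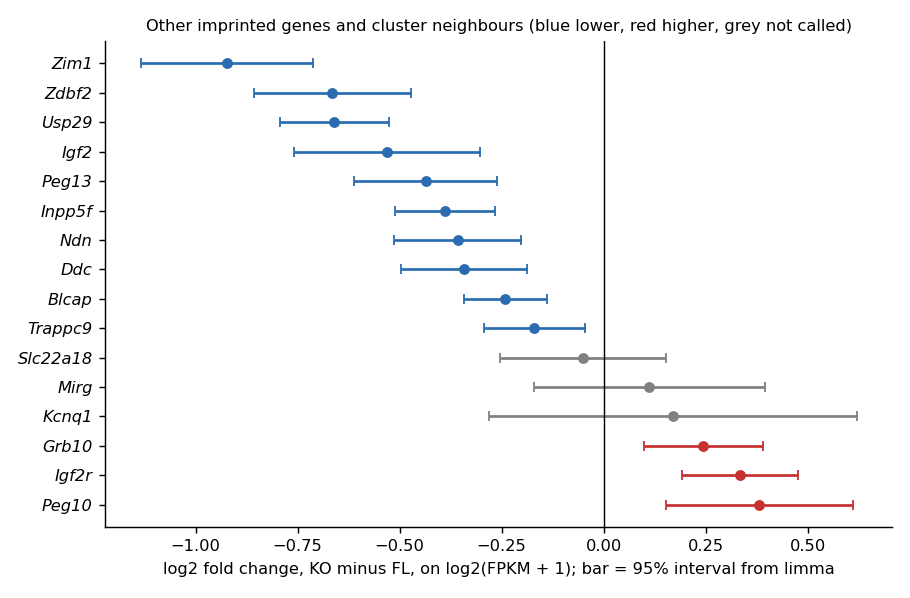
log2 fold change of KO minus FL on log2(FPKM + 1) (x axis) with the 95% interval from limma (n = 5 per group) for imprinted genes and cluster neighbours outside the 10 genes that passed the test, plus tested cluster-mates of the 10. Among the genes drawn, *Zim1* at -0.92 is furthest left and *Peg10* at 0.38 furthest right.

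Of 7 tested genes that lie in imprinted clusters but are mostly read from both copies or only in some tissues, 4 fell and 3 did not pass by limma, beside 16.5% lower over all genes tested. In addition to *Blcap*, they were *Inpp5f* (log2 fold change -0.39, adjusted p = 0.000595), a phosphoinositide phosphatase gene, *Ddc* (212 ± 12.4 to 167 ± 16.2 FPKM, SD, n = 5 each, log2 fold change -0.34, adjusted p = 0.00514), which encodes the decarboxylase of dopamine and serotonin synthesis, and *Trappc9* (log2 fold change -0.17, adjusted p = 0.0469). *Trappc9* lost its call in 14 of the 19 alternatives, 8 of them fits that left out 1 mouse.

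Among 12 tested genes that keep or remove methylation at imprints, 4 fell and 8 did not pass by limma, a called share of 33.3% beside 25.5% over all genes tested. *Dnmt1*, the maintenance methyltransferase, was at 7.75 to 8.43 FPKM in FL and 6.23 to 6.99 FPKM in KO, with a log2 fold change of -0.24 (SE 0.05, limma adjusted p = 0.00422), and it kept its call without any 1 mouse. *Trim28*, the ZFP57 partner, (log2 fold change -0.17, adjusted p = 0.0321), *Zfp445*, another zinc-finger protein of imprints, (log2 fold change -0.24, adjusted p = 0.0244) and *Tet3*, a methylcytosine dioxygenase, (log2 fold change -0.26, adjusted p = 0.0262) each lost the call in 4 of the 10 fits that left out 1 mouse. *Trim28* lost it without FL mouse 3 or KO mouse 1, 4 or 5, *Zfp445* without FL mouse 4 or 5 or KO mouse 4 or 5 and *Tet3* without FL mouse 2, 3 or 5 or KO mouse 2. With median-ratio or TPM scaling 2 of the 12 passed, *Dnmt1* and *Zfp445*, and with quantile scaling *Tet3* as well. *Trim28* passed under none of these scalings. With the mice's replicate numbers as a block, *Dnmt1* alone of the 12 passed. *Zfp57*, the gene of ZFP57, was at only 0.0330 to 0.216 FPKM in FL and 0.0846 to 0.277 FPKM in KO and was not tested. No methylation was measured.

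Some marker lists of islet and other cell types differed between the groups, beside 16.5% lower and 9.05% higher over all genes tested. All 5 tested β cell markers fell (their sum was 836 to 1081 FPKM in FL and 498 to 737 FPKM in KO), as did 2 of 5 α cell markers (548 to 752 and 344 to 502 FPKM). All 6 tested stellate and fibroblast markers rose (18.4 to 27.2 and 35.0 to 44.3 FPKM), as did 3 of 6 endothelial markers (157 to 184 and 178 to 240 FPKM). Of 5 leukocyte markers 2 rose and 1 fell (50.4 to 68.0 and 87.7 to 99.1 FPKM). Of 4 delta cell markers 1 fell, of 4 duct markers 1 fell and 1 rose, and neither *Ppy* nor the 1 tested Schwann cell and neuron marker passed. The part of the β, α, stellate and fibroblast, endothelial and leukocyte markers in the lower levels of *Peg3*, *Rasgrf1*, *Plagl1* and *Nnat* and in the higher level of *Dlk1* was not tested.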

How the data were processed

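Libraries were made from 1 μg RNA (stranded, polyA) and read as single-end 75-nt reads. Submitters' processing notes name STAR 2.5.2a, Cuffnorm 2.2.1 and mm10/GRCm38. The authors deposited 1 table of FPKM values with 5 FL and 5 KO columns. FPKM are scaled per exon length and library, so a few abundant transcripts can shift all others. Whether Cuffnorm also scaled across libraries is not given in the sources used here, and no scaling was added in the main analysis. Values were analysed as log2(FPKM + 1) with limma 3.58.1 (R 4.3.3, trended variance), for the 13065 genes that averaged 1 FPKM or more in either group. Adjusted p-values are Benjamini-Hochberg over these genes, called at 0.05. Fold changes of low genes are understated by the added 1. Single genes were also tested by an exact two-sided permutation of the 10 libraries (252 splits). The fit was tested on simulated data. Coordinates come from GENCODE M21 (GRCm38), matched by gene identifier, promoters from RefSeq. Text names the 10 genes, listed genes past the threshold, cluster-mates of the 10, the 3 genes most correlated with *Meg3* and *Fitm2*. *Ins1*, *Ins2*, *Iapp*, *Gcg* and *Ppy* are named as cell type markers. *Glp1r*, *Gm23134* and *Zfp57* were added after their values were seen. The imprinted genes and lists were chosen with earlier results of these data known. Leaving out each mouse, other filters, pseudocounts, scalings and variance models, sample weights and a replicate block were tried. The reads per library are unknown, so no counting interval is given.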

Additional observations from a re-analysis of the deposited data

Results flagged for a closer look

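There were 6 readings that stood apart from the other mice of their group by Dixon's test at the 95% level, of 78 groups of 5 mice examined, where chance gives about 1 in 20 (3.9 groups). *Peg3* in KO mouse 5 was 145 FPKM, against 165.7 to 173.7 FPKM in the other KO mice. *Igf2* in FL mouse 1 was 2.36 FPKM, against 1.598 to 1.70 FPKM. *Inpp5f* in FL mouse 4 was 48.9 FPKM, against 43.6 to 44.9 FPKM. *Tet3* in KO mouse 2 was 2.94 FPKM, against 3.24 to 3.34 FPKM. *Gipr* in FL mouse 4 was 8.83 FPKM, against 9.91 to 10.2 FPKM. *Mirg* in KO mouse 1 was 5.85 FPKM, against 5.03 to 5.16 FPKM. *Peg3*, *Igf2*, *Inpp5f* and *Gipr* kept their calls in each fit that left out 1 mouse.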

How the results depend on the processing

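*Peg3*, *Plagl1* and *Rasgrf1* kept direction and call in all 19 alternatives, with log2 fold changes from -0.61 to -0.49, -0.47 to -0.35 and -0.80 to -0.68. *Gnas* and *Cdkn1c* passed in none (adjusted p from 0.102 and 0.384 by limma). *Fitm2* ranged from -1.71 to -1.39 and kept its call. *Dlk1* lost its call in 11 of 19 alternatives (0.28 to 0.49) and *Nnat* in 6 (-1.66 to -1.17). *Rian* gained it with sample weights and without KO mouse 3. *Meg3*, which ranged from -0.25 to 0.04, changed sign without FL mouse 5 (0.0045) and without KO mouse 2 (0.0385). Testing also genes under 1 FPKM gave 3 called imprinted genes of the 10 in place of 5 and 5 Gs pathway genes in place of 8, but 11 other imprinted genes (6 lower, 5 higher) in place of 9. Requiring a 1.5-fold change left 639 of all 3333 called genes, 2 of the 10 (*Nnat* and *Rasgrf1*), 3 other imprinted, 0 maintenance and 1 Gs pathway genes. Median-ratio and TPM scaling gave 2 maintenance genes each in place of 4. Without 1 mouse, 3 to 5 of the 10 were called (3 without FL mouse 3 or KO mouse 2), 2 to 6 maintenance genes (2 without FL mouse 3 or 5 or KO mouse 4 or 5) and 4 to 9 Gs pathway genes (4 without FL mouse 3 or 5 or KO mouse 1 or 4). The causes were not tested. Over all genes tested, FL and KO mice of the same replicate number were not alike (same-number correlations of deviations -0.102 to 0.003). Such correlations cannot exclude that the mice were paired. With a replicate block 2368 genes were called, 4 of the 10 (without *Dlk1*), 1 maintenance gene and 4 Gs pathway genes, and 0 mice of either group correlated best with their own number. The median log2 fold change of all genes tested stayed between -0.07 and 0.00. Depth could be read only relatively and the FPKM carry no counts, so that levels as low as that of *H19* give no measurable difference.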
